A study of Rattus norvegicus with 39 samples.

Results

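The liver's response to ANIT (alpha-naphthylisothiocyanate) was compared with its response to NMF (N-methylformamide), with the 5 arrays titled ANIT set against the 5 arrays titled NMF, 10 of the 39 arrays of the series. Every array stands for 1 rat, 5 to 6 weeks old, whose liver was sampled in its left lateral lobe 48 h after treatment. The ANIT rats had received 125 mg/kg by mouth in corn oil, and the NMF rats 1000 mg/kg by intraperitoneal injection in saline. The 9 untreated rats used here as a reference received no compound and no vehicle, and the labels give neither the strain nor the sex of any rat. Compound, dose, vehicle and route differ together between ANIT and NMF and cannot be told apart. The 5 Caerulein rats (50 µg/kg in saline by intraperitoneal injection) shared NMF's vehicle and route, and their mean levels are given beside some results for that reason. The fit also held rats given DMN (dimethylnitrosamine) or DNP, each at 15 mg/kg by mouth in water. It held rats given Roziglitazone too, at 1000 mg/kg by mouth in methylcellulose solution.

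Both compounds are known liver toxicants that react with glutathione, the small thiol that traps reactive chemicals. ANIT is carried into bile as a glutathione conjugate, injures the cells that line the bile ducts and stops bile flow. NMF is oxidised by cytochrome P450 to a reactive intermediate, and the hepatocytes around the central vein are those that it kills. The transcription factor NRF2 turns on glutathione synthesis and many detoxification enzymes, SREBP2 turns on cholesterol synthesis when membrane sterol is low, and the acute phase is the liver's release of defence proteins under inflammatory signals.

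Levels are log2 of the deposited intensities, and a difference of 1 is a 2-fold change. Calls are genes with an adjusted p under 0.05 (limma, Benjamini-Hochberg over all 14217 genes), and every adjusted p below comes from that test unless another is named. Precision is limited by the number of arrays, and no read depth exists. The labels name the arrays as biological replicates.

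A few arrays stood apart. Each array's deviation from the mean of the other arrays was correlated across genes with that of each group, as a description. For the array labelled ANIT 3 this correlation was 0.705 with DMN and 0.301 with the other ANIT arrays, while the other ANIT arrays reached 0.594 to 0.755 with their own group. NMF 3 and NMF 4 correlated at 0.157 and 0.289 with the other NMF arrays, and at 0.180 and 0.338 with ANIT. The 5′ probe set for Gapdh, a control for RNA integrity, read 7.08 in NMF 3 against 12.71 to 12.85 in the other NMF arrays, and 10.49 in ANIT 5 against 12.38 to 12.77 in the other ANIT arrays. Among the untreated arrays this 5′ signal was 7.42 in control 4 and 6.34 in control 5, where the 3′ signal was low too (8.09), and in control 1 it lay 1.37 below the 3′ signal. Among the arrays of further compounds in the fit, it was 6.87 in DMN 3, 7.24 in DNP 1 and 6.42 in Roziglitazone 1. A fit with the difference between the 3′ and 5′ signals as a covariate called 1569 genes. ANIT 3 was kept under its label, and the counts and the genes it moved most are also given without it.

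Among the leading differences between the groups were detoxification enzymes, higher in NMF, and acute phase and cholesterol synthesis genes, higher in ANIT. Central vein genes were lower in NMF than in ANIT. Against untreated liver 7 of 15 fell and 1 rose in NMF, and 3 fell and 1 rose in ANIT. In all 940 genes were called, 6.61% of those tested, with 534 higher in ANIT (3.76%) and 406 lower (2.86%). Of these, 346 differed at least 2-fold (2.43%). Without ANIT 3 the count was 1137 (8%), with 678 higher (4.77%) and 459 lower (3.23%), and without both ANIT 3 and NMF 3 it was 1260. Which direction held more calls changed with the scaling. After centring of each array at its median, 456 calls were higher and 629 lower in ANIT, so that 42.0% of calls were higher against 56.8% as reported, and quantile normalization gave 486 and 529. In 1082 genes (7.61%) all ANIT arrays lay on 1 side of all NMF arrays. Against the same untreated arrays, 2344 genes were called for ANIT (16.5%), with 8.19% of all genes rising and 8.29% falling. For NMF these were 1063 genes (7.48%), with 3.85% rising and 3.63% falling. Because both comparisons share these controls, their values are only set side by side below. Each count of called list members below is to be set beside the 6.61% of all genes called between ANIT and NMF. Counts against untreated liver are to be set beside the shares of all genes for that group. These are 8.19% rising and 8.29% falling for ANIT, and 3.85% rising and 3.63% falling for NMF.

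**Figure D1:**
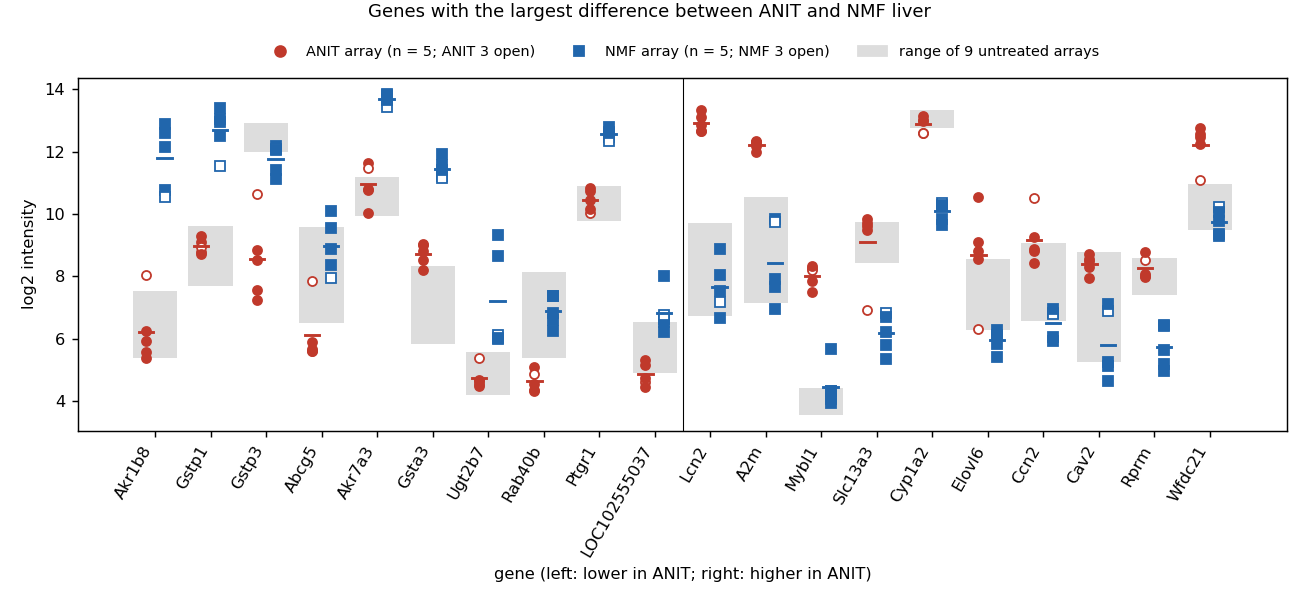
Log2 intensity of the 10 genes with the largest difference in each direction, among called genes whose ANIT and NMF arrays do not overlap. Circles are the 5 ANIT arrays and squares the 5 NMF arrays, open symbols are ANIT 3 and NMF 3, short bars are group means and grey boxes span the 9 untreated arrays. The plot shows Akr1b8 and Gstp1 raised above the untreated range in every NMF array, and Lcn2 and A2m above it in every ANIT array.

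The plot of the leading genes shows 20 genes that were chosen because their groups are apart, so their separation is given by the choice. Among the 10 lower in ANIT, Akr1b8, Gstp1, Akr7a3, Gsta3, Ugt2b7 and Ptgr1 rose in NMF against untreated liver and were not called in ANIT, where they differed from the untreated mean by −0.14 to 1.33. Gstp3, Abcg5 and Rab40b stood below the untreated mean in ANIT, with NMF between −0.69 and 0.88 from it on the log2 scale. Among the 10 higher in ANIT, Slc13a3, Cyp1a2 and Rprm lay near the untreated mean in ANIT and below it in NMF.

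Akr1b8, an aldo-keto reductase that reduces reactive aldehydes, had the largest difference of all genes in this selection. It stood at 5.92, 6.24, 8.03, 5.58 and 5.36 in ANIT 1 to 5 and at 12.88, 10.78, 10.55, 12.15 and 12.61 in NMF 1 to 5, against 6.03 ± 0.65 in untreated liver (SD, n = 9). Every NMF array was above every ANIT array, and ANIT 3 was the highest of its group. The level was 47.5-fold lower in ANIT (log2 difference −5.57 ± 0.45 SE, adjusted p = 5.04e-11), and 64.8-fold lower without ANIT 3. In the Caerulein rats, which shared saline and injection with NMF, Akr1b8 was at 6.11 ± 0.36 (SD, n = 5).

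Gstp1, the pi-class glutathione S-transferase, was measured at 9.10, 8.79, 8.94, 9.30 and 8.72 in ANIT and at 12.50, 13.05, 11.55, 13.40 and 12.95 in NMF. The groups were apart, with NMF 3 the lowest of its group and the ANIT arrays inside the untreated range of 7.69 to 9.62. The difference came to 13.2-fold (−3.72 ± 0.31 SE, adjusted p = 8.64e-11), and Caerulein stood at 8.92. Gstp3, a close relative whose probe sets may share signal with Gstp1, showed another pattern. Its values were 8.54, 7.55, 10.65, 7.23 and 8.84 in ANIT and 12.18, 11.13, 12.09, 12.07 and 11.42 in NMF, with untreated liver at 12.47 ± 0.31 (SD, n = 9). It was 9.29-fold lower in ANIT than in NMF (−3.22 ± 0.58 SE, adjusted p = 0.000469), or 13.3-fold without ANIT 3, and against untreated liver it fell 15.0-fold in ANIT (adjusted p = 3.47e-06) while NMF differed by −0.69 (adjusted p = 0.517). Gstp1 thus rose in NMF and Gstp3 fell in ANIT, each against untreated liver.

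Of 21 measured glutathione S-transferases, which couple glutathione to reactive chemicals, 10 were lower in ANIT and none higher, or 47.6% against 6.61% of all genes. The list's median difference was −0.59, against −0.04 over all genes, and 8 were lower without ANIT 3. Gsta3, an alpha-class enzyme, was at 8.53, 8.21, 8.99, 9.04 and 8.81 in ANIT and at 11.56, 11.20, 11.14, 11.42 and 11.93 in NMF, a 6.65-fold difference (adjusted p = 0.00319). Its groups were far apart, and NMF 3 was again the lowest NMF array. Mgst2, a membrane-bound member of the class, was 2.38-fold lower in ANIT (adjusted p = 0.000177). Against untreated liver 8 members rose and 1 fell in NMF, and 3 rose and 7 fell in ANIT. Probe sets of close relatives on this list may share signal.

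Among 24 NRF2 targets and glutathione supply genes, 3 were lower in ANIT and none higher (12.5%), with a median of −0.18. Against untreated liver the list rose in both groups. In ANIT 8 members rose and 1 fell (median 0.33), and in NMF 12 rose and 1 fell (median 0.62). Gclm, the regulatory subunit of the enzyme that limits glutathione synthesis, was at 9.80, 9.37, 10.27, 9.27 and 8.64 in ANIT and 11.62, 11.38, 10.71, 11.42 and 11.84 in NMF. The ANIT arrays lay near the untreated mean of 9.70 and all NMF arrays above them, a 3.80-fold difference (−1.93 ± 0.29 SE, adjusted p = 4.2e-05). Nqo1, a quinone reductase, was 3.14-fold lower in ANIT (adjusted p = 0.00131), and Ugdh, which makes UDP-glucuronic acid for conjugation, 2.13-fold lower (adjusted p = 0.000243). Gpx2, a glutathione peroxidase, rose 10.3-fold in ANIT and 19.9-fold in NMF against untreated liver, and the difference between them was −0.94 ± 0.55 SE (adjusted p = 0.326). Hmox1, heme oxygenase, was at 11.52, 11.60, 12.37, 11.64 and 10.87 in ANIT and 10.06, 10.46, 10.51, 10.33 and 9.53 in NMF, groups that did not overlap, yet its difference of 1.42 ± 0.47 SE missed the threshold (adjusted p = 0.0618). It was called under 4 of 23 alternatives, which were the fit of the 2 groups alone (adjusted p = 0.00962), array weights, the Gapdh covariate and the filter on the dimmest genes, and over all alternatives up to 3 genes of the list were higher. Gclc, the catalytic subunit paired with Gclm, differed by −0.62 ± 0.30 SE (adjusted p = 0.223).

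Of 21 aldo-keto reductases and aldehyde dehydrogenases, 4 were lower in ANIT (6 without ANIT 3) and none higher. Akr7a3, a reductase of aflatoxin dialdehyde, was at 11.63, 10.79, 11.49, 10.78 and 10.03 in ANIT and 13.83, 13.70, 13.43, 13.66 and 13.86 in NMF, a 6.73-fold difference (adjusted p = 5.72e-07). All NMF arrays lay within a narrow range above the ANIT arrays. Akr7a2 was 2.40-fold lower in ANIT (adjusted p = 0.000459). Aldh1l1, a folate enzyme, fell against untreated liver in ANIT (−0.74, adjusted p = 0.00387) and rose in NMF (0.67, adjusted p = 0.0139), and the groups differed 2.65-fold (adjusted p = 2.4e-05). Outside that list, the prostaglandin and alkenal reductase Ptgr1 was 4.37-fold lower in ANIT (adjusted p = 2.28e-08). Of 17 glucuronosyl- and sulfotransferases 2 were lower and none higher, with 3 lower and 1 higher without ANIT 3. The first of them, Ugt2b7, was at 4.47, 4.66, 5.39, 4.53 and 4.65 in ANIT, close to the background of the array, and at 8.65, 9.31, 6.12, 6.03 and 5.98 in NMF, where 2 arrays were far above the other 3, and the difference was 5.57-fold (adjusted p = 0.000537).

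**Figure D2:**
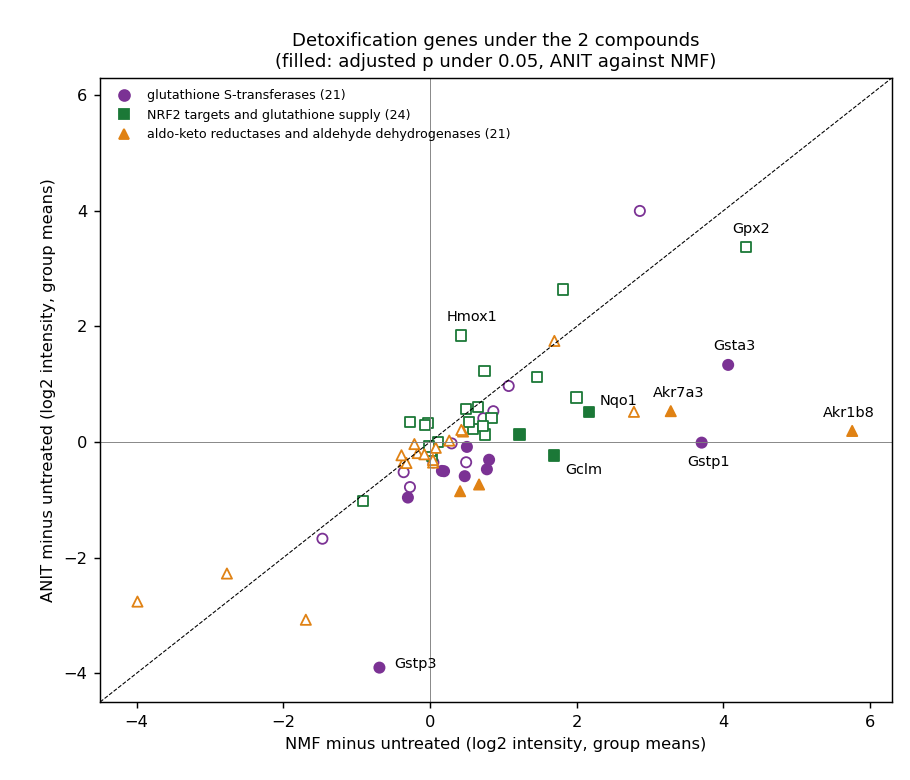
Group mean log2 intensity minus the untreated mean for 3 lists of detoxification genes, NMF on the horizontal axis and ANIT on the vertical axis. Each point is a gene, filled where ANIT against NMF had an adjusted p under 0.05, and the dashed line marks equal change. Both axes subtract the same untreated arrays, so the spread along the dashed line is partly shared, and the plot is read for distance from that line: all 17 filled genes lie below it.

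The plot of detoxification genes shows Akr1b8, Gstp1, Gsta3 and Akr7a3 far to the right of the line of equal change, Gstp3 far below it, and Gpx2 near it. The promoters of Gstp1 and Gclm are printed because the core of the antioxidant response element, the DNA site of NRF2, occurs in both. The 250 bases before the start of each gene are given 5′ to 3′ on the gene's strand, from RefSeq (GRCr8), with the match to TGACNNNGC, searched on both strands, in capitals.
Gstp1, chr1:210769706-210769955, minus strand: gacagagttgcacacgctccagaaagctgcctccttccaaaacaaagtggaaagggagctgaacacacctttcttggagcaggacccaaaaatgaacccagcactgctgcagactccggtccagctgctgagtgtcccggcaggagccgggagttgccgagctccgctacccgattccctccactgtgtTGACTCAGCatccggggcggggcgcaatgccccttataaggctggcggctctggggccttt
Gclm, chr2:213031885-213032134, plus strand: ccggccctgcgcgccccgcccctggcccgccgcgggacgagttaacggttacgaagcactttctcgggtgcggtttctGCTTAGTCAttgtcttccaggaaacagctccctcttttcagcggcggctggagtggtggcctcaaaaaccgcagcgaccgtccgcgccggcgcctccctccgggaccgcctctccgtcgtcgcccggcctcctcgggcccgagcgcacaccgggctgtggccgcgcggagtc
The match in Gstp1 begins 61 bases before the start, and that in Gclm, on the opposite strand, 172 bases before it. This core was found in the same window of 5 of 18 glutathione S-transferase genes with a promoter in the table (27.8%), 4 of 22 genes of the NRF2 list (18.2%) and 0 of 16 of the aldo-keto reductase and aldehyde dehydrogenase list, against 10.1% of 33469 promoters. A match of these letters is a description and not evidence of a bound site.

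The export of bile components differed gene by gene. Of 10 measured canalicular transporters, which move bile acids, lipids and drugs into bile, 2 were higher and 3 lower in ANIT. Abcc2, the exporter of glutathione and glucuronide conjugates, was at 10.85, 10.31, 10.42, 10.26 and 9.997 in ANIT and 12.16, 12.05, 11.41, 11.89 and 11.93 in NMF. The groups were apart, NMF stood above the untreated mean of 10.75, and the level was 2.87-fold lower in ANIT (−1.52 ± 0.23 SE, adjusted p = 5.12e-05). Abcb4, which moves phospholipid into bile, ran the other way, at 11.52, 11.47, 10.22, 11.97 and 11.37 in ANIT and 9.91, 9.37, 9.38, 10.03 and 9.29 in NMF. It was 3.28-fold higher in ANIT (adjusted p = 0.00167), with ANIT 3 the lowest ANIT array. The sterol exporter pair Abcg5 and Abcg8 was lower in ANIT. Abcg5 was at 5.88, 5.60, 7.85, 5.66 and 5.61 in ANIT and at 9.56, 8.88, 7.93, 10.10 and 8.37 in NMF, with ANIT 3 standing more than 1 log2 unit above the other ANIT arrays and just below the lowest NMF array. The difference was 7.19-fold (adjusted p = 0.00167), and 9.71-fold without ANIT 3. Abcg8 was 3.05-fold lower (adjusted p = 0.0182), a call lost without ANIT 4, ANIT 5, NMF 1 or NMF 4 (adjusted p up to 0.0695). Abcb11, the bile salt export pump, was 1.61-fold higher in ANIT (adjusted p = 0.0143), and the call was lost without NMF 5 and with the ANIT and NMF arrays fitted alone (adjusted p up to 0.0774). Against untreated liver Abcb11 fell in NMF (−0.55, adjusted p = 0.0258) and was not called in ANIT (0.14, adjusted p = 0.555).

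Abcc3, which returns bile acid conjugates to the blood, was at 10.68, 10.10, 7.15, 10.65 and 11.21 in ANIT and 11.23, 10.05, 10.66, 10.10 and 9.84 in NMF, against 5.66 ± 0.92 in untreated liver (SD, n = 9). The 2 groups overlapped, ANIT 3 was the lowest of the 10 arrays, and both groups were raised against untreated liver (19.7-fold, adjusted p = 4.97e-05, and 26.3-fold, adjusted p = 1.48e-05). The difference of −0.42 ± 0.79 SE (adjusted p = 0.808) turned to 0.28 ± 0.78 without ANIT 3, again not called. None of 7 basolateral efflux transporters was called. Of 8 uptake transporters 1 was called: Slco1a4, an organic anion carrier, was at 11.05, 10.57, 11.14, 11.29 and 10.07 in ANIT and 8.50, 8.40, 9.80, 9.21 and 7.90 in NMF, 4.18-fold higher in ANIT (adjusted p = 4.62e-05). ANIT lay around the untreated mean of 10.90 and NMF below it. Slc10a1, the main sodium-coupled bile acid carrier, fell 2.05-fold in ANIT against untreated liver (adjusted p = 0.000438), and the difference from NMF was −0.57 ± 0.23 SE (adjusted p = 0.13).

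Cyp7a1, the rate-limiting enzyme of bile acid synthesis, was at 10.85, 10.74, 8.52, 10.74 and 11.68 in ANIT and 7.13, 6.87, 8.63, 6.47 and 7.26 in NMF. The groups touched only where ANIT 3 lay just below NMF 3, and the mean was 9.41-fold higher in ANIT (3.23 ± 0.77 SE, adjusted p = 0.00745), or 13.3-fold without ANIT 3. Against the untreated mean of 9.96 it fell 6.44-fold in NMF (adjusted p = 0.00917), while ANIT differed by 0.55 (adjusted p = 0.608). Of 14 bile acid synthesis genes 2 were called (14.3%), the other being Slc27a5, which activates bile acids for conjugation. It rose in ANIT (0.49) and fell in NMF (−0.87) against untreated liver, and the groups differed 2.56-fold (adjusted p = 3.38e-06). Among 9 bile acid sensing genes 1 was higher and 2 lower, with 1 lower without ANIT 3. Nr0b2, the repressor known as SHP that is induced by bile acids, was at 7.73, 8.07, 8.06, 7.59 and 8.88 in ANIT and 10.04, 10.03, 9.89, 9.50 and 9.96 in NMF, 3.53-fold lower in ANIT (adjusted p = 0.0048). Fgfr4, the receptor through which gut FGF signals to hepatocytes, was 1.77-fold higher in ANIT (adjusted p = 0.000927). Nr0b2 and Cyp7a1 thus stood on opposite sides of NMF in the ANIT group.

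Cholesterol synthesis was the list with the highest share of called members. Of 21 measured genes 15 were higher in ANIT and none lower (71.4%), and without ANIT 3 these were 18. The median difference was 1.18, and 1.55 without ANIT 3, against −0.04 over all genes. The array mean of the list, taken from the untreated mean, was 1.28, 1.16, −0.65, 1.12 and 1.56 in ANIT 1 to 5 and −0.62, −1.04, −0.23, −0.55 and −0.87 in NMF 1 to 5, with untreated arrays from −0.24 to 0.23. ANIT 3 alone of its group lay below the untreated range, among the NMF arrays. Against untreated liver 9 members rose in ANIT and none fell, and in NMF 3 fell and none rose.

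**Figure D3:**
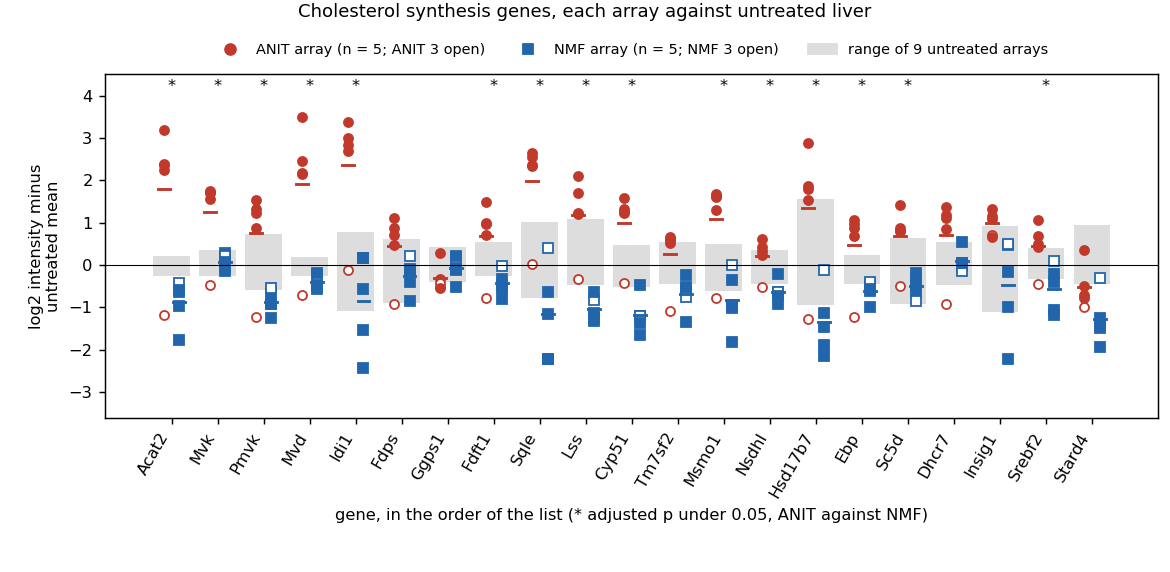
Log2 intensity minus the untreated mean for the 21 measured genes of cholesterol synthesis and its control, in each array. Circles are ANIT, squares NMF, open symbols ANIT 3 and NMF 3, short bars group means, grey boxes the span of the 9 untreated arrays, and stars mark an adjusted p under 0.05. In every starred gene the other 4 ANIT arrays lie above all NMF arrays, while ANIT 3 lies below the untreated mean in all of them but Sqle.

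Idi1, the isomerase that readies the isoprenoid building blocks for joining, was at 12.07, 12.23, 9.11, 11.91 and 12.61 in ANIT and 7.68, 6.80, 9.39, 9.39 and 8.66 in NMF. ANIT 3 lay far below the other 4 ANIT arrays and inside the NMF range. The difference was 9.20-fold (3.20 ± 0.53 SE, adjusted p = 0.00015) and 14.1-fold without ANIT 3. Sqle, squalene epoxidase, was at 11.76, 11.48, 9.14, 11.45 and 11.66 and 7.98, 6.90, 9.52, 8.48 and 6.91, an 8.81-fold difference (adjusted p = 4.2e-05) and 12.4-fold without ANIT 3. Here too ANIT 3 was apart from its group and below the highest NMF array. Hsd17b7, a later enzyme of the sterol branch, was 6.52-fold higher (adjusted p = 0.00161), and Acat2, the thiolase at the entry of the pathway, 6.40-fold higher (adjusted p = 0.000677). Without ANIT 3 these differences were 10.3-fold and 10.7-fold. Lss and Cyp51, which close and demethylate the sterol ring, were picked out after their values were seen, as the called members whose groups did not overlap. Lss was 4.66-fold higher in ANIT (adjusted p = 0.00011) and Cyp51 4.52-fold (adjusted p = 0.000116), and both rose in ANIT and fell in NMF against untreated liver.

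The promoters of Idi1 and Hsd17b7 are printed as examples of the CCAAT box, the site of NF-Y, a partner of SREBP at sterol genes. The same window and source apply, and CCAAT, searched on both strands, is in capitals, here as its reverse complement.
Idi1, chr17:66547525-66547774, minus strand: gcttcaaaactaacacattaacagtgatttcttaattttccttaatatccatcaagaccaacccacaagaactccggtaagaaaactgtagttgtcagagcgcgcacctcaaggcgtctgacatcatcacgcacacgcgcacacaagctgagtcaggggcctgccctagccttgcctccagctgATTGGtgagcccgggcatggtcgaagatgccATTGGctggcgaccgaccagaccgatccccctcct
Hsd17b7, chr13:84722755-84723004, minus strand: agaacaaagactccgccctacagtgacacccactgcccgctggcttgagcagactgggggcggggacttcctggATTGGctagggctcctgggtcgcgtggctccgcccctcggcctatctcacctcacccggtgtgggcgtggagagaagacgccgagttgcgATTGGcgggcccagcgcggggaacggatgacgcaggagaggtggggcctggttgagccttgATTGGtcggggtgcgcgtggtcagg
Idi1 holds the box at 66 and 35 bases before the start, and Hsd17b7 at 176, 86 and 25. It was found in 14 of the 17 cholesterol synthesis genes with a promoter in the table (82.4%), against 34.0% of 33469 promoters. A sterol regulatory element written as TCACNCCAC was found in 0 of these 17 windows and in 0.974% of all promoters, which says only that these letters are not in this window.

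Several genes of fatty acid synthesis were also higher in ANIT than in NMF, but against untreated liver more of them fell than rose in both groups. In ANIT 7 fell and 1 rose (median −0.40), and in NMF 15 fell and 1 rose (median −1.22). Of 24 lipogenesis genes 8 were higher and 2 lower in ANIT (41.7%), with a median of 0.62, and 10 were higher without ANIT 3. Without any 1 of ANIT 1, 2 or 4 or NMF 1 or 2 the count was 5, and without ANIT 5 or NMF 5 it was 4. Scd, the stearoyl-CoA desaturase, was at 10.92, 10.14, 9.75, 9.61 and 10.76 in ANIT and 8.30, 8.11, 7.77, 8.46 and 7.68 in NMF, against 12.67 ± 0.47 in untreated liver (SD, n = 9). Both groups were below untreated liver, 5.41-fold and 24.4-fold, and they differed 4.51-fold (adjusted p = 0.000234). Fasn, fatty acid synthase, was at 11.64, 11.48, 9.60, 11.52 and 12.56 in ANIT and 9.40, 8.62, 8.69, 9.90 and 9.45 in NMF, 4.42-fold higher in ANIT (adjusted p = 0.000809), or 6.01-fold without ANIT 3. Apart from ANIT 3, which lay among the NMF arrays, ANIT lay near or above the untreated mean of 11.23, and all NMF arrays below it. Elovl6, which lengthens fatty acids, was at 8.81, 9.11, 6.31, 8.56 and 10.55 in ANIT and 5.40, 6.28, 6.07, 6.11 and 5.83 in NMF, where ANIT 3 sat just above the NMF arrays and ANIT 5 was the highest. It differed 6.63-fold (adjusted p = 0.000665), or 9.98-fold without ANIT 3, and its dimmer second probe set was not called. Acss2, which makes acetyl-CoA from acetate, was 4.11-fold higher (adjusted p = 0.00626), or 6.80-fold without ANIT 3, and the call was lost with the 2 groups fitted alone (adjusted p = 0.0797). Of 24 PPARA targets and fatty acid oxidation genes 5 were lower in ANIT and none higher, with 8 lower without ANIT 3, 2 without NMF 3 and 1 without any 1 of ANIT 1, 2 or 5 or NMF 1, 2 or 5. Cpt2, which carries fatty acids into mitochondrial oxidation, was 1.94-fold lower in ANIT (adjusted p = 0.00168).

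Several genes of the hepatocytes around the central vein were lower in NMF. Of 15 such genes 5 were higher in ANIT and none lower (33.3%), with 6 higher without ANIT 3. The list's array mean was −0.19, −0.21, −0.77, −0.13 and −0.24 in ANIT and −1.21, −1.20, −0.90, −1.39 and −1.32 in NMF from the untreated mean, and the groups did not overlap. In whole liver fewer cells of a type and less RNA per cell cannot be told apart. Cyp1a2, a P450 of this zone, was at 12.99, 12.60, 12.61, 13.02 and 13.16 in ANIT and 10.26, 9.65, 10.35, 9.84 and 10.30 in NMF, 6.94-fold higher in ANIT (2.80 ± 0.15 SE, adjusted p = 3.6e-16). The ANIT arrays lay within or just below the untreated range of 12.77 to 13.32, every NMF array was far below it, and Caerulein was at 13.04. Slc13a3, a dicarboxylate carrier, was at 9.49, 9.70, 6.92, 9.83 and 9.60 in ANIT and 6.20, 5.33, 6.83, 6.70 and 5.79 in NMF, 7.66-fold higher (adjusted p = 3.19e-05) or 11.2-fold without ANIT 3, with ANIT 3 just above the highest NMF array. Rgn, regucalcin, fell against untreated liver 2.67-fold in ANIT and 8.84-fold in NMF, and the groups differed 3.32-fold (adjusted p = 0.000667). Cyp7a1, given above, is also on this list.

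Of 23 periportal genes for the urea cycle and amino acid breakdown, 5 were lower in ANIT and none higher, with 3 lower without any 1 of ANIT 1, 2 or 5 or NMF 1, 2 or 3. Hal, histidine ammonia-lyase, was at 9.52, 9.86, 10.84, 9.92 and 9.32 in ANIT and 11.63, 11.22, 11.44, 11.30 and 11.09 in NMF, 2.72-fold lower in ANIT (adjusted p = 0.000379), and NMF lay at the untreated mean of 11.42. Ftcd, a later enzyme of histidine breakdown, was 1.90-fold lower (adjusted p = 0.00208), and Gls2, liver glutaminase, 1.88-fold lower (adjusted p = 0.00363). The called central vein genes were thus lower in NMF, and the called periportal genes lower in ANIT. Among 19 methionine cycle and one-carbon genes 2 were higher and 2 lower in ANIT. The higher ones were Csad, which makes taurine (2.08-fold, adjusted p = 0.00881), and Dmgdh, of choline breakdown (1.75-fold, adjusted p = 0.0145), a call lost without NMF 1 or NMF 5 (adjusted p up to 0.0637). Against untreated liver Csad fell in ANIT (−0.94, adjusted p = 0.00388) and in NMF (−2.00, adjusted p = 1.17e-07). Dmgdh fell in NMF (−0.94, adjusted p = 0.00073) and was not called in ANIT (adjusted p = 0.659).

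Of 33 xenobiotic P450 genes 5 were higher and 1 lower in ANIT (18.2%), and 3 were higher without any 1 of ANIT 2, 3 or 5 or NMF 1 or 5. Cyp1a1, the main target of the aryl hydrocarbon receptor, was at 11.76, 10.03, 5.48, 9.996 and 12.19 in ANIT and 5.79, 5.44, 7.41, 4.65 and 5.91 in NMF. ANIT 3 overlapped the NMF arrays, and the difference of 16.6-fold (adjusted p = 0.00234) became 35.6-fold without it. Cyp2c13 was 2.76-fold higher in ANIT (adjusted p = 0.000113) and Cyp2c23 1.53-fold lower (adjusted p = 0.0124), with the caution that probe sets of this large family may share signal. Against untreated liver Cyp2c13 fell in both groups (−0.71, adjusted p = 0.0168, in ANIT and −2.18, adjusted p = 2.84e-09, in NMF). Cyp2c11, the male-type P450 driven by growth hormone pulses, fell against untreated liver 6.49-fold in ANIT and 3.48-fold in NMF, and differed between them by −0.90 ± 0.42 SE (adjusted p = 0.2). Of 20 growth hormone dependent genes 1 was higher in ANIT and none lower, although 12 fell in each group against the shared controls.

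Several acute phase and inflammatory genes were higher in ANIT. Of 26 acute phase genes 7 were higher in ANIT and none lower (26.9%), with 6 higher and 1 lower without ANIT 3 and 4 higher without NMF 5. Lcn2, lipocalin 2, which binds bacterial iron carriers, was at 13.12, 13.34, 12.66, 12.87 and 12.65 in ANIT and 8.03, 6.65, 7.18, 8.89 and 7.54 in NMF. The ANIT arrays lay close together above the untreated range of 6.71 to 9.71, and the NMF arrays were spread within or just below it. It was 38.6-fold higher in ANIT (5.27 ± 1.02 SE, adjusted p = 0.00103). A2m, a protease inhibitor of the rat acute phase, was at 12.19, 12.34, 12.30, 11.98 and 12.32 in ANIT and 7.90, 9.84, 9.73, 7.67 and 6.95 in NMF, 14.0-fold higher in ANIT (adjusted p = 0.00178). Its NMF arrays were spread, with NMF 2 and NMF 3 near 10 and the others below 8, and the untreated arrays ran from 7.14 to 10.55. In the Caerulein rats Lcn2 was at 10.60 ± 2.25 and A2m at 11.12 ± 1.38 (SD, n = 5), above the untreated means of 8.01 and 8.88, a difference not tested here. Wfdc21 was 5.59-fold higher in ANIT (adjusted p = 0.00104), and Lbp, which presents endotoxin to its receptor, 3.03-fold higher (adjusted p = 0.00632).

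Of 25 coagulation and complement genes made by the liver, 9 were higher in ANIT and none lower. Against untreated liver 14 of them fell in NMF and 6 in ANIT. C5, the source of a potent attractant of leukocytes, was at 11.96, 12.10, 11.91, 12.01 and 12.42 in ANIT and 10.17, 10.53, 11.31, 10.71 and 9.90 in NMF, 2.94-fold higher (adjusted p = 4.22e-06). C6, of the membrane attack complex, was at 9.54, 9.69, 9.89, 9.37 and 9.57 in ANIT and 7.75, 6.73, 7.58, 8.86 and 7.80 in NMF, 3.65-fold higher (adjusted p = 0.00023), with both groups below the untreated mean of 10.50. C9, which forms the pore, was 1.96-fold higher in ANIT (adjusted p = 1.97e-05). C5 and C9 rose in ANIT and fell in NMF against untreated liver, while C6 fell in both.

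Of 30 chemokine and inflammatory signal genes 4 were higher and 1 lower in ANIT (16.7%). The adhesion molecule Icam1 was 2.15-fold higher (adjusted p = 0.00226), and the NF-kappa-B subunits Nfkb1 and Nfkb2 were 2.10-fold and 2.30-fold higher (adjusted p = 0.00144 and 0.00355), the second call being lost with the 2 groups fitted alone (adjusted p = 0.0588). Among 24 interferon response genes 3 were higher and none lower (12.5%), of which Psmb8 and Psmb9 encode immunoproteasome subunits. Psmb9 was 2.41-fold higher in ANIT (adjusted p = 0.000971) and Psmb8 1.93-fold (adjusted p = 0.00307). Both of these fell in NMF against untreated liver (adjusted p = 0.0396 and 0.00188), and neither was called in ANIT (adjusted p = 0.0608 and 0.706).

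A number of matrix and cell shape genes were higher in ANIT. Of 36 extracellular matrix and stellate cell genes 11 were higher and none lower (30.6%), and 14 without ANIT 3. The count was 7 without ANIT 1, NMF 2 or NMF 5, and 6 without ANIT 5. Col1a1, of fibrillar collagen, was at 9.58, 10.14, 8.13, 9.25 and 10.64 in ANIT and 7.44, 7.12, 7.44, 7.92 and 7.54 in NMF, 4.16-fold higher in ANIT (adjusted p = 0.000466). The groups were apart, with ANIT 3 the lowest of its group and the untreated mean of 8.88 between the group means. Ccn2, a matrix signal also known as connective tissue growth factor, was at 8.81, 8.87, 10.51, 8.43 and 9.25 in ANIT and 6.05, 6.83, 6.80, 6.95 and 5.93 in NMF, 6.34-fold higher (adjusted p = 0.00119). Here ANIT 3 was the highest array. Its relative Ccn1 was 5.10-fold higher (adjusted p = 0.00206). Against untreated liver 8 members of the list fell in NMF and none rose, and in ANIT 6 rose and 3 fell. The share falling in ANIT was near the 8.29% of all genes.

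Of 39 injury cytoskeleton and adhesion genes 12 were higher in ANIT and none lower (30.8%), and 10 and 1 without ANIT 3. Rnd1, a GTPase that loosens cell adhesion, was at 8.77, 9.58, 8.59, 8.99 and 9.29 in ANIT and 6.95, 6.18, 6.51, 7.98 and 6.41 in NMF, 4.71-fold higher in ANIT (adjusted p = 0.00538). It rose in both groups against the untreated mean of 4.86, 18.2-fold and 3.87-fold. The calcium-binding proteins S100a11 and S100a6 were 4.02-fold and 3.01-fold higher in ANIT (adjusted p = 0.00114 and 0.00557). Cav2, of membrane caveolae, was 6.05-fold higher by the probe set used (adjusted p = 0.0021). Of its other probe sets, one differed by 2.30 (adjusted p = 0.00866 over all probe sets), and 2 dimmer ones were not called.

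Among genes of growth and cell division, Mybl1 and Ccnd1 were higher in ANIT. Mybl1, a transcription factor of the MYB family, was at 7.49, 8.27, 8.19, 7.86 and 8.31 in ANIT and 3.92, 4.04, 4.30, 5.66 and 4.31 in NMF. The NMF mean lay within the background of the array, which the poly-A spike controls put at 3.49 to 4.70, so the level was at least 11.95-fold higher in ANIT (adjusted p = 1.75e-05), and NMF 4 was the highest of its group. Ccnd1, the cyclin of entry into the cell cycle, was at 11.10, 11.13, 10.05, 11.07 and 11.03 in ANIT and 9.33, 8.74, 8.32, 9.35 and 8.92 in NMF, 3.86-fold higher (adjusted p = 0.000113). ANIT 3 was the lowest ANIT array. Of 48 cell cycle genes 3 were higher and 2 lower (10.4%, against 6.61% of all genes), with 9 higher without NMF 4. The list mean in ANIT 3 was 1.40 above the untreated mean, against 0.19 to 0.42 in the other ANIT arrays and −0.33 to 0.47 in NMF. Top2a, a topoisomerase of dividing cells, was 1.96-fold higher (adjusted p = 0.0215), and the call was lost without ANIT 3 (adjusted p = 0.0853), NMF 2 or NMF 3, and by its second probe set. Ccna2 and Mki67, markers of dividing cells, differed by 1.40 ± 0.67 and 0.61 ± 0.42 SE (adjusted p = 0.207 and 0.415). For Ccna2 the difference was 0.76 without ANIT 3 (adjusted p = 0.531) and 2.02, a call, without NMF 4 (adjusted p = 0.0468).

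Of 21 p53 targets 2 were higher in ANIT (9.52%), and 4 without NMF 4. Rprm, a cell cycle brake, was at 8.08, 8.02, 8.53, 8.77 and 7.97 in ANIT and 5.64, 5.18, 6.39, 6.43 and 4.95 in NMF, 5.87-fold higher in ANIT (adjusted p = 2.93e-06). ANIT lay near the untreated mean of 8.04 and NMF below it. Cdkn1a and Mdm2, the textbook targets, differed by 0.86 ± 0.44 and 0.56 ± 0.29 SE (adjusted p = 0.249 and 0.258), and Cdkn1a was at 11.91 in ANIT 3 against 9.92 to 10.31 in the other ANIT arrays. Of 24 immediate early genes 3 were higher in ANIT (1 without ANIT 5 or NMF 5), among them Jun (4.17-fold, adjusted p = 0.00989) and Klf6 (3.71-fold, adjusted p = 0.0187). A dimmer probe set of each was not called, and the Klf6 call was lost without ANIT 5 or NMF 5 (adjusted p up to 0.0969). Of 31 apoptosis and cell death regulators 3 were higher (9.68%), or 1 without NMF 5, with Tnfrsf12a, the TWEAK receptor, 3.93-fold higher (adjusted p = 0.0164), a call lost without NMF 5 (adjusted p = 0.0723). The shares of cell cycle, p53 and apoptosis genes lay near that of all genes, so nothing was read from them.

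A few endoplasmic reticulum genes were higher in NMF. Of 29 ER stress and ATF4 genes 4 were lower and 1 higher in ANIT (17.2%). Sdf2l1, an ER protein of the unfolded protein response, was at 10.18, 9.98, 10.20, 10.13 and 9.99 in ANIT and 11.81, 11.66, 11.73, 11.53 and 11.64 in NMF, 2.98-fold lower in ANIT (adjusted p = 1.18e-06). The untreated mean of 10.64 lay between the groups. Herpud1, of ER-associated degradation, was 2.40-fold lower (adjusted p = 0.00664) and Pdia6, a disulfide isomerase, 1.81-fold lower (adjusted p = 0.000577). Of 15 gluconeogenesis and glycogen genes 1 was higher and 2 lower, the latter being Ugp2, which makes UDP-glucose (2.23-fold, adjusted p = 2.94e-05), and Gbe1, the glycogen branching enzyme (1.79-fold, adjusted p = 0.00336). Of 34 oxidative phosphorylation genes 4 were lower and none higher (11.8%), with none called lower without ANIT 5 or NMF 5, 1 without ANIT 2 and 2 without ANIT 4 or NMF 1. Of 32 proteasome subunits 2 were higher, the immunoproteasome genes above, and 1 lower (9.38%). Iron handling had 2 higher and 1 lower of 22 (13.6%). Heat shock chaperones had 1 higher of 18 (5.56%), and none without ANIT 3, and circadian clock genes 1 lower of 17 (5.88%), both shares below the 6.61% of all genes. Of the leading genes that stand on no list, Rab40b was at least 4.80-fold lower in ANIT (adjusted p = 0.00177), its ANIT mean lying within background, while its second probe set differed by −0.18 (adjusted p = 0.734). The uncharacterised LOC102555037 was 3.93-fold lower (adjusted p = 9.03e-05).

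Stac3, which encodes an adaptor best known from muscle, was low in both groups. It was at 5.19, 6.01, 5.21, 5.30 and 5.91 in ANIT and 5.74, 5.89, 6.51, 5.15 and 6.74 in NMF, against 10.83 ± 0.41 in untreated liver (SD, n = 9). The groups overlapped and differed by −0.48 ± 0.71 SE (adjusted p = 0.738).

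Markers of the cell types in the lobe were counted beside these results. The shares called among cholangiocyte (5.56%), endothelial (7.14%) and neutrophil markers (8.33%) lay near the 6.61% of all genes, so nothing was read from these counts. None of 11 hepatocyte markers was called. Of 18 cholangiocyte markers 1 was called, Cldn7, a junction protein (2.63-fold higher in ANIT, adjusted p = 0.0057, lost with the 2 groups fitted alone at 0.101). It was at 7.36, 5.60, 5.10, 7.54 and 7.96 in ANIT and 5.38, 5.70, 5.225, 5.13 and 5.15 in NMF. ANIT 2 and ANIT 3 thus lay among or below the NMF arrays. Without ANIT 3, 1 marker was higher and 1 lower. Epcam, Krt19 and Krt7 differed by −0.04 ± 0.32, −0.33 ± 0.28 and 0.14 ± 0.20 SE (adjusted p = 0.957, 0.529 and 0.737), and Cftr lay within background in both groups. Against untreated liver Epcam rose 2.35-fold in ANIT (adjusted p = 0.00217) and 2.42-fold in NMF (adjusted p = 0.00223). Krt19 fell 1.87-fold in ANIT (adjusted p = 0.0108) and was not called in NMF (adjusted p = 0.184). Krt7 was called in neither group. Stellate cell markers were higher in 3 of 14, with list means from −0.31 to 0.28 in ANIT and −0.52 to −0.19 in NMF. Besides Col1a1 these were Pdgfra, a growth factor receptor (2.58-fold, adjusted p = 0.0038), and Cygb, a globin of quiescent stellate cells (2.17-fold, adjusted p = 0.000724). Whether their number or state has a part in the matrix results was not tested.

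Neutrophil markers were called in 1 of 12 (8.33%), which was Lcn2, also made by hepatocytes. The list mean, which includes Lcn2, ran from 0.12 to 1.03 in ANIT and −0.35 to 0.01 in NMF. The list's median difference was 0.09, and −0.06 without ANIT 3. Macrophage markers were higher in 2 of 16 (4 without NMF 4), with list means of −0.22 to 0.16 in ANIT and −0.47 to 0.17 in NMF. Lyz2, lysozyme, was 2.22-fold higher in ANIT (adjusted p = 0.00632), a call lost without ANIT 3 and NMF 3, and with the 2 groups fitted alone (adjusted p up to 0.056). Endothelial markers were higher in 1 of 14 by all 10 arrays (7.14%) and in 4 without ANIT 3 and NMF 3. Vwf was 2.20-fold higher (adjusted p = 0.0165), a call lost without ANIT 4, ANIT 5 or NMF 5 (adjusted p up to 0.0755). None of 19 lymphocyte and none of 15 pancreatic acinar markers was called. Of 8 erythroid markers 2 were higher in ANIT, Alas2, of heme synthesis (5.29-fold, adjusted p = 0.00015), and Hbb, beta globin (2.24-fold, adjusted p = 0.00739). The list's median difference was 0.02, and −0.13 without ANIT 3. Its list means ran from −0.44 to 0.48 in ANIT, the highest in ANIT 3, and from −0.83 to −0.33 in NMF. Against untreated liver Alas2 and Hbb both fell in NMF (−2.00, adjusted p = 0.000167, and −1.13, adjusted p = 0.00195). Neither was called in ANIT (0.40 and 0.03, adjusted p = 0.447 and 0.945). The part of these markers in other results was not tested.

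**Figure D4:**
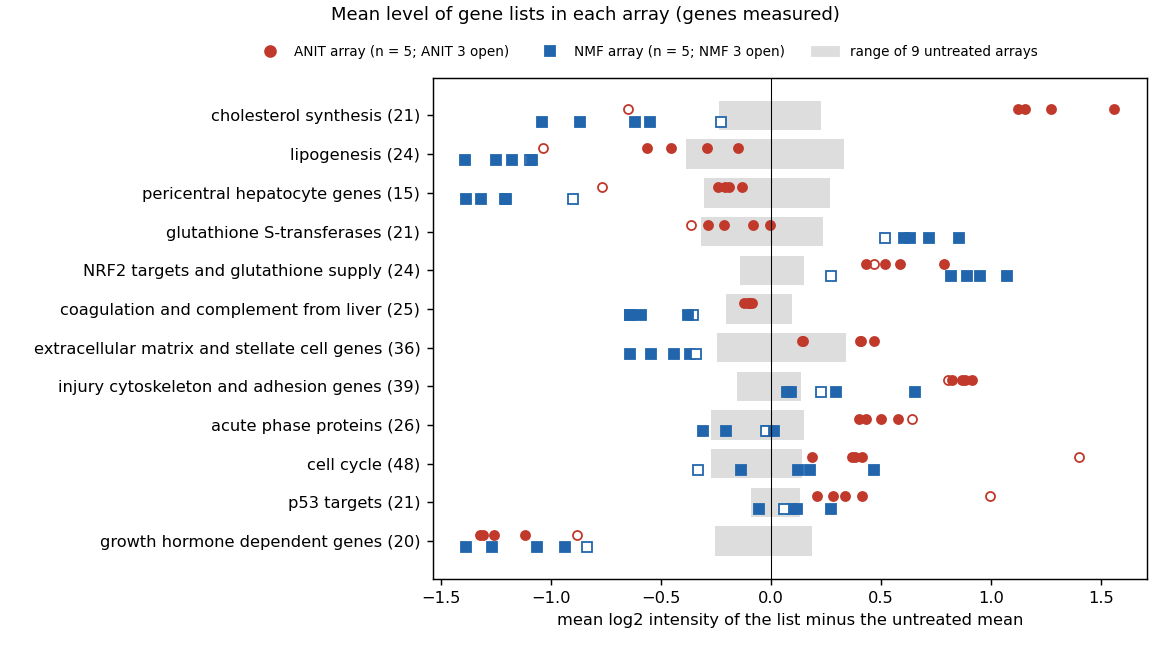
Mean log2 intensity of 12 gene lists in each array, minus the untreated mean, with the number of measured genes in brackets. Circles are ANIT, squares NMF, open symbols ANIT 3 and NMF 3, and grey boxes the span of the 9 untreated arrays. ANIT 3 stands apart from its group for cholesterol synthesis (−0.65) and the cell cycle (1.40).

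The plot of list means places every ANIT array to the left of every NMF array for glutathione S-transferases, and to the right for central vein genes, complement, matrix, injury cytoskeleton and acute phase genes. For cholesterol synthesis the order holds for 4 of the 5 ANIT arrays. Growth hormone dependent genes were below the untreated span in all 10 arrays.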

How the data were processed

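Liver RNA of 39 rats was measured on Affymetrix Rat 230 2.0 arrays, 1 array per rat. The authors deposited an intensity for each probe set, on a linear scale that ran from 5.4 to 23152.1. RMA and the affy package are named in the submitters' processing notes without versions, the step back to a linear scale is not stated in the sources used here, and mean intensity per array was 348 to 360 in the ANIT and NMF arrays. Background and probe-level summary were thus set by the authors, and low intensities carry a floor that shrinks differences.

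From there, log2 was taken of the deposited intensities. Of 31099 probe sets, 20826 had 1 gene symbol, 436 several and 9780 none (57 are controls). Only the first were used, a gene with several probe sets was represented by the probe set brightest on average, giving 14217 genes. All 39 arrays entered 1 limma 3.58.1 fit (lmFit, eBayes; R 4.3.3) in which each group has its own mean, with Benjamini-Hochberg adjustment over all genes and calls at an adjusted p under 0.05. Errors are SE of differences and SD of groups. The fit was tested on simulated data. A group mean inside the range of 26 poly-A spike probe sets, 3.49 to 4.70, was taken as background, and a fold against it as a lower bound; a spike probe set at 6.47 was left out. The design had assumed deposited log2 values, so taking log2 was a step added later.

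Samples were grouped by their titles. The comparison, the 43 gene lists and the genes named were chosen with earlier results of these data known. The text names, by rule, the 10 genes per direction with the largest difference among called genes whose arrays do not overlap, up to 4 called members per list and direction, and a set of genes whatever their test; not all of these are printed. Other scalings, gene summaries, filters, models and sets of arrays were tried as alternatives.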

Additional observations from a re-analysis of the deposited data

Results flagged for a closer look

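Single arrays stood far from the other 4 of their group in 23 of 200 group and gene pairs (Dixon's ratio above 0.71, passed by about 1 in 20 sets of independent values). The genes were chosen with results known and several move together. That rate is thus no expectation for these pairs, and the count is a description. Of these, 18 were in ANIT 3, 3 in NMF 4, and 1 each in NMF 3 and NMF 5. In ANIT 3 the log2 level was lower than in the other ANIT arrays for Abcc3 (7.15), Slc27a5 (12.08), Gpx2 (6.00), Slc13a3 (6.92), Idi1 (9.11), Sqle (9.14), Acat2 (7.59), Cyp51 (11.01), Acss2 (8.22) and Ccnd1 (10.05). The same array was higher for Abcg5 (7.85), Ugt2b7 (5.39), Top2a (9.86), Ccna2 (8.77), Cdkn1a (11.91), Hbb (13.70), Lyz2 (12.79) and Krt19 (6.83). NMF 4 was low for Nr0b2 (9.50) and Mgst2 (11.99) and high for Mybl1 (5.66). NMF 3 was low for Ugdh (12.54), and NMF 5 was high for Ugp2 (12.19).

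Some genes were called in opposite directions in ANIT and NMF against the shared untreated arrays, and the difference between the groups was itself tested in limma. Higher in ANIT were Slc27a5 (log2 difference 1.35), Lss (2.22), Cyp51 (2.18), Elovl6 (2.73), C5 (1.55) and C9 (0.97). Lower in ANIT were Aldh1l1 (−1.41), LOC102555037 (−1.98) and Sdf2l1 (−1.58).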

How the results depend on the processing

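Of 100 genes named, 85 were called, and 73 of these kept their direction and call under every alternative that tested them. That was 23 alternatives for most and 22 for Ccn1, Mybl1, Rnd1, Ugt2b7 and LOC102555037, which the filter on the dimmest genes left out. The other 12 lost the call under at least 1 and none turned. With 1 array left out in turn, 485 to 1137 genes were called, 274 to 678 higher and 203 to 497 lower in ANIT, and 230 to 454 at least 2-fold, the lowest count of calls coming without NMF 5 (485), then without ANIT 5 (495). With the ANIT and NMF arrays fitted alone 821 genes were called, and 632 of the 940 reported calls were kept. Array weights gave 2934 calls, 1634 higher and 1300 lower, 598 of them at least 2-fold. With the difference between the 3′ and 5′ Gapdh signals as a covariate 1569 genes were called, 935 higher and 634 lower. With arrays centred on their median 629 were lower, and without ANIT 3 and NMF 3, an alternative chosen after the data were seen, 577 differed at least 2-fold. Without ANIT 3, DMN 2 and Roziglitazone 2, 1331 genes were called, and the standing of DMN 2 and Roziglitazone 2 in their groups was not examined here. The cause of these shifts was not tested.

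The replicate number as a block gave 998 calls, 549 higher and 449 lower, with 872 of the reported calls kept. Same-numbered arrays correlated in their deviations at 0.26, 0.39, −0.14, −0.02 and 0.04, and 2 of 5 correlated best with their own number, so the numbers were not taken as a pairing. With 1 array left out in turn the difference ranged from −0.73 to 0.28 for Abcc3, the latter without ANIT 3, and from −0.22 to 0.26 for Epcam. Abcc3 turned to 0.28 also without ANIT 3, DMN 2 and Roziglitazone 2 and to 0.36 without ANIT 3 and NMF 3. Epcam turned to 0.26 under each of these, to 0.17 with array weights and to 0.00 without NMF 5, and neither gene was called in any of these.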
